A study of Mus musculus with 2 samples.

Results

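*Insl3*, *Rxfp2* and *Rxfp1*, the gene of a Leydig cell hormone and the genes of its receptor and of the related relaxin receptor, were followed through the nuclei of the mouse testis at E14.5. They were taken by symbol and make up 3 of the 32285 genes counted, with the peaks within 100 kb of their starts, 48 of 109215, added to them. Whole testes came from embryos of homozygous *Nr5a1-cre* mice (a B6D2 transgenic line) crossed to homozygous *Rosa-tdTomato* females, so that every nucleus carried both alleles. The sources used here do not give how many embryos were pooled. RNA and open chromatin (ATAC, where a transposase cuts accessible DNA) were read in the same nuclei by single-nucleus multiomics, giving 1 library of each and no replicate. All intervals below are exact 95% intervals that cover counting error only, and no difference between animals could be tested.

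INSL3 is a small peptide hormone that fetal Leydig cells make as a prohormone, cut into chains that disulfide bonds hold together. Its receptor RXFP2 has leucine-rich repeats outside the cell and signals through G proteins to cyclic AMP. The pair is known for the first step of testis descent, in which INSL3 acts on the gubernaculum, and males that lack either gene have undescended testes. RXFP1 is the receptor of relaxin and a close relative of RXFP2.

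The matrix held 9833 barcodes, all of which also had ATAC fragments, and 7198 nuclei were kept, with medians of 7948 RNA molecules (UMIs) and 4477 fragments. They fell into 12 clusters, made without the genes of the relaxin family and the 48 peaks. All 5 Leydig markers, *Star* and *Nr5a1* among them, were highest in the Leydig-like cluster of 789 nuclei. The cluster nearest to mesonephric mesenchyme, of 390 nuclei, rests on *Itga8* and *Ntrk3* (805 and 820 UMIs per 1000000 of the class, CPM), since the other markers *Gata2* and *Tbx18* stood at 3 and 1 UMIs. It is called *Itga8*/*Ntrk3*-high here. The largest cluster, of 2553 nuclei led by *Tacr3*, *Plcxd3* and *Myh11*, stayed unnamed, since its best score was for progenitor markers while *Myh11* marks contractile cells. The progenitor-like cluster of 736 nuclei was led by genes of dividing cells such as *Neil3*, *Depdc1a* and *Ckap2l*, and 1 of its 6 markers was highest in it.

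The sequences in front of the *Insl3* and *Rxfp2* starts are shown because accessibility was measured there, and 300 bases from the middle of 1 peak near each gene because these peaks differed most between classes. They are RefSeq promoters and genome of GRCm38.p6, plus strand, where *Insl3* (ENSMUSG00000079019) lies at chr8:71689214-71690575 and *Rxfp2* (ENSMUSG00000053368) at chr5:150018675-150082184. Capitals mark CAAGGTC, the motif of NR5A1, on either strand. Searched on both strands too were AGGTCA, the half-site of nuclear receptors that shares 5 letters with it, the motif of GATA factors, spelled AGATAA, and the box that TBP binds near many starts, spelled TATAAA.
Insl3 promoter, chr8:71689002-71689213: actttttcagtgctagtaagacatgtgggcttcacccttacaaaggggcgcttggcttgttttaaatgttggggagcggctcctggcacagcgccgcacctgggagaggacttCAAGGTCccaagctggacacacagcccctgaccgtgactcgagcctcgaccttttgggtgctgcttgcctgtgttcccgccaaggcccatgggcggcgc
Insl3 peak, chr8:71686375-71686674: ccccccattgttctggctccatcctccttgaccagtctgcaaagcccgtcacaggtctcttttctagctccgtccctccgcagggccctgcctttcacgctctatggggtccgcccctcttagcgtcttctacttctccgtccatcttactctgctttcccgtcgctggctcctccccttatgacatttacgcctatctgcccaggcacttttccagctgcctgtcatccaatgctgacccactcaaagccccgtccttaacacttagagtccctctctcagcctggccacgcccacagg
Rxfp2 promoter, chr5:150018425-150018674: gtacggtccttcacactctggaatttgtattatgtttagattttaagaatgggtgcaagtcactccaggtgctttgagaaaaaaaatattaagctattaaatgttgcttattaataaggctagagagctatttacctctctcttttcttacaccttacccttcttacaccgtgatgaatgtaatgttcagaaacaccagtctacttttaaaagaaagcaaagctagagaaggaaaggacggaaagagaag
Rxfp2 peak, chr5:149919026-149919325: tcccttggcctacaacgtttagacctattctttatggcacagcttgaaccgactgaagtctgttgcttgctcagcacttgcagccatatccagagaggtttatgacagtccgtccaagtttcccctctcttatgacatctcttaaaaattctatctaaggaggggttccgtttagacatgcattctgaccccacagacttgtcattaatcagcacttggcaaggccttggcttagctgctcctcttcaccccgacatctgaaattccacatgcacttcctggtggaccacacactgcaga

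The *Insl3* promoter held the NR5A1 motif 1 time, 99 bases before the start. These 7 letters occur in 2.89% of all 32851 RefSeq promoters over the same 212 bases. The other 3 sequences hold none of the 4 motifs, and the *Insl3* promoter none of the other 3. Among all peaks the NR5A1 motif lies in the central 300 bases of 10.2%. A match is a string of letters and not a measured binding site.

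*Insl3*, the ligand, was highest in Leydig-like nuclei, at 86.6 CPM (80.5 to 93.0) from 757 UMIs. All other nuclei together held 22.2 CPM, so the Leydig-like level was 3.90 times higher (3.57 to 4.25). *Insl3* thus passed a 2-fold difference that 8.42% of 19399 genes with at least 20 UMIs passed in Leydig-like nuclei. In order, immune-like nuclei followed at 33.7 CPM (21.3 to 50.5), the unnamed cluster at 30.9 CPM (28.3 to 33.7) and supporting-like nuclei at 24.9 CPM (16.6 to 36.1). Pericyte-like (23.3), progenitor-like (22.3), Sertoli-like (21.3), erythroid-like (19.7), *Itga8*/*Ntrk3*-high (19.6), surface epithelium-like (19.5), endothelial-like (17.6) and germ-like nuclei (16.8 CPM, 15.1 to 18.7) came next. Below the Leydig-like class each neighbour in this order overlapped the next, while the unnamed cluster lay above the progenitor-like, Sertoli-like, *Itga8*/*Ntrk3*-high, surface epithelium-like, endothelial-like and germ-like classes without overlap. Finer clusters gave another progenitor-like class, of 2258 nuclei, which joined 737 led by genes of dividing cells with 1521 others. It stood at 27.2 CPM (24.8 to 29.7) and overlapped contractile-like nuclei (30.9 CPM, 26.9 to 35.4). Since it is not the same set of nuclei, the distance above concerns only the progenitor-like class led by genes of dividing cells.

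**Figure D1:**
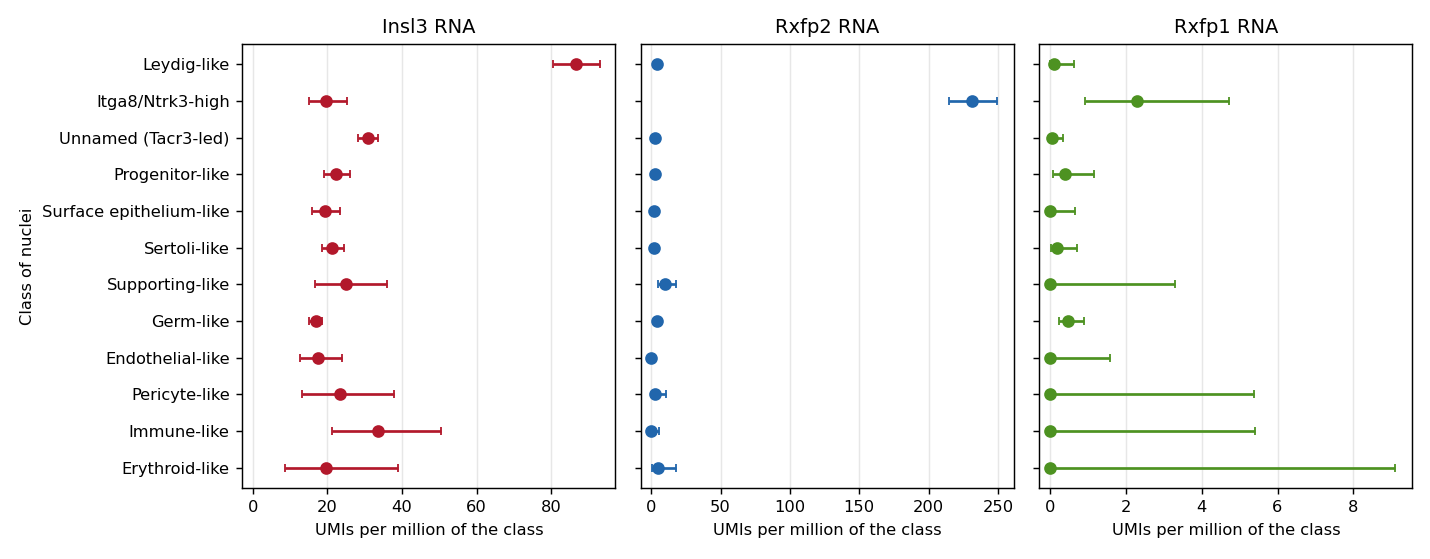
RNA of the 3 genes in 12 classes of nuclei, as UMIs per 1000000 of the class (CPM) on a scale of its own in each panel; points are class sums and bars exact 95% Poisson intervals. Insl3 stood out in Leydig-like nuclei (86.6) over a level of 16.8 to 33.7 elsewhere, Rxfp2 in Itga8/Ntrk3-high nuclei (231), and Rxfp1 reached 2.29 at most.

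Only 33.3% of all 2274 *Insl3* UMIs lay in Leydig-like nuclei. At least 1 UMI was seen in 440 of 789 Leydig-like nuclei (55.8%, 52.2% to 59.3%) and in 23.6% of germ-like nuclei (21.0% to 26.4%). Median depth was 15521 UMIs in germ-like nuclei against 9577 in Leydig-like nuclei. Thinned to 2000 UMIs per nucleus, which left out 3 Leydig-like and 2 germ-like nuclei, the shares were 17.3% (14.7% to 20.1%) and 3.09% (2.09% to 4.38%). The unnamed cluster stood between them at 6.12% thinned (5.21% to 7.14%, 54 nuclei left out, median depth 5883), but below both at 17.8% unthinned.

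*Star*, which carries cholesterol into mitochondria for steroid synthesis, differed more steeply, with 281 CPM in Leydig-like nuclei and 13.1 to 30.1 CPM in the other classes. *Star* was among the markers that named the Leydig-like class, while *Insl3* was barred from the clustering, so the 2 genes are not on equal terms. For each *Star* UMI there were 0.308 *Insl3* UMIs in Leydig-like nuclei (0.284 to 0.335) but 1.10 in all others (1.02 to 1.18), from 0.586 in endothelial-like nuclei to 1.65 in the unnamed cluster. Outside the Leydig-like class, 46 nuclei with at least 3 *Insl3* UMIs held 202 of 1517, and 35 of the 46 scored over the automatic doublet threshold. Of all nuclei outside, 11.3% scored over it. Median depth was 36879.5 UMIs in the 46 nuclei against 7737 in all nuclei outside. Without nuclei over that threshold, Leydig-like nuclei stood at 96.3 CPM. The other classes then lay at 11.3 CPM (endothelial-like) to 42.3 CPM (immune-like). How much of the *Insl3* outside the Leydig-like class is free RNA was not tested.

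Among Leydig-like nuclei *Insl3* followed the summed level of the 5 markers. In 3 equal sets of 263 nuclei it stood at 59.1 CPM (51.3 to 67.7), 89.2 CPM (78.4 to 101.2) and 121.5 CPM (108.3 to 135.8) from the lowest to the highest. These intervals do not overlap, and median depth ran the other way, at 10463, 9466 and 9388 UMIs. The lowest set began at a marker level of 0 CPM, and whether it held nuclei of other kinds was not tested. Counts per Leydig-like nucleus were low. No UMI was found in 44.2% of these nuclei, where a Poisson draw at 1 common level and each nucleus's own depth gives 42.5%. None of them held more than 8, whereas a germ-like nucleus held 18, the most in any class. Single germ-like nuclei also held the most *Star* (43) and *Nr5a1* (48) UMIs, against at most 37 and 23 in a Leydig-like nucleus. Whether such germ-like nuclei are doublets was not tested.

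Leydig-like nuclei with and without an *Insl3* UMI, 440 and 349 in number with median depths of 10102 and 8933, were set beside each other for genes with at least 100 UMIs (a comparison chosen after the values were seen). *Tmeff2* was 3.22 times as high where *Insl3* was seen (2.46 to 4.26) and *Glis3*, a zinc finger factor, 2.82 times (1.89 to 4.32). *Ccdc85a* (0.305), *Met*, the receptor of hepatocyte growth factor (0.307), and *Dpp10* (0.342) were lower there, and the matrix gene *Smoc2* stood at 102 against 208 CPM. The genes are among the extremes of 8536, so their sizes are a description. Finer clusters gave a Leydig-like class of 742 nuclei, 427 of them with an *Insl3* UMI. Whether nuclei of other kinds lay among the 349 without one was not tested.

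*Insl3* lies wholly inside *Jak3*, a kinase gene of the same strand at chr8:71676296-71690575. Its second exon (404 bases, 71690172 to 71690575) matches the last exon of a *Jak3* transcript end for end, whereas the first exon (219 bases) shares no base with a *Jak3* exon. Reads in the shared exon could belong to either gene, and how many the authors' counting left out was not tested. *Jak3* itself was 7.70 times as high in Leydig-like nuclei (5.47 to 10.8), with 71 UMIs or 8.12 CPM there and 72 UMIs in all other nuclei.

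Of the 8 other genes that start within 100 kb of *Insl3*, *Jak3* and 3 more passed 2-fold upward in Leydig-like nuclei, as did 8.42% of all genes. *Fcho1*, which acts in endocytosis, stood at 22.6 against 2.24 CPM (10.1 times, 8.14 to 12.6). *B3gnt3*, a glycosyltransferase gene, was 21.9 times as high (10.3 to 50.4) on 28 and 10 UMIs, and *Unc13a*, known from synaptic vesicle priming, 6.96 times (4.802 to 10.1) on 58 and 65 UMIs. *Pgls* (1.08) and *Colgalt1* (0.943) had intervals that held 1. *Fam129c* passed downward (0.293, 0.0591 to 0.887) on 3 and 80 UMIs, as did 28.6% of all genes, and *Gm35572*, with 2 and 26 UMIs, had a ratio of 0.6004 (0.0691 to 2.40).

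Chromatin at the *Insl3* start was more open in Leydig-like nuclei than in all others together, although no peak had been called within 1 kb. Within 1 kb of the start lay 101 cut sites in Leydig-like nuclei, or 15.7 per 1000000 cut sites of the class (cut CPM; 12.8 to 19.1), and 245, or 3.50 cut CPM, in all others, a ratio of 4.49 (3.53 to 5.68). The ends of a fragment are cut together, and 87.6% of nonzero counts at these peaks were even, so intervals on cuts are too narrow. Counted as fragments, 52 against 129, the ratio was 4.39 (3.12 to 6.10). Immune-like nuclei (13.4 cut CPM, 5.77 to 26.3, on 8 cuts) overlapped the Leydig-like level, and the remaining classes held at most 4.75, with germ-like nuclei at 2.58 (1.84 to 3.51).

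**Figure D2:**
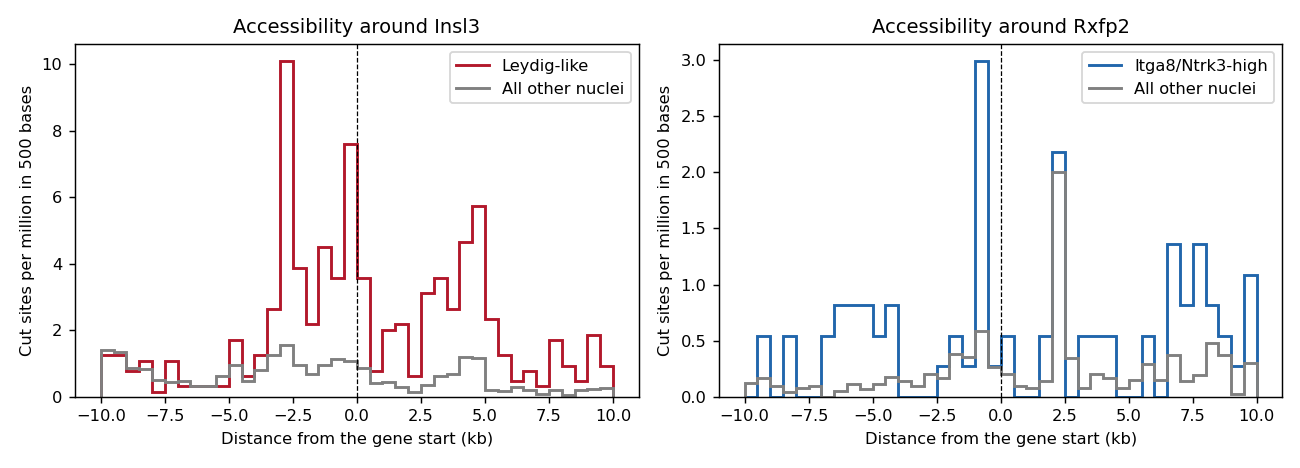
Cut sites per 1000000 of the class (cut CPM) in bins of 500 bases, within 10 kb of the Insl3 (left) and Rxfp2 (right) starts, negative distances being upstream; the coloured line is the class named and the grey line all other nuclei. Leydig-like nuclei rose to 10.1 in the bin starting 3000 bases upstream of Insl3, 7.62 in the bin that ends at the start and 5.75 from 4500 bases downstream, against 1.56, 1.07 and 1.17 in the others.

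Of the 25 peaks within 100 kb of *Insl3*, 8 (32.0%) were at least 2-fold more open in Leydig-like nuclei, beside 10.1% of 108970 peaks with at least 20 cuts over all nuclei. The peak of the largest ratio, whose middle is printed above, lies at chr8:71686091-71686958 in an intron of *Jak3*, 2689 bases upstream of the *Insl3* start. It held 94 of 261 cuts in Leydig-like nuclei, 40.9 cut CPM against 6.77 (ratio 6.04, 4.64 to 7.82), here and for all peaks per 1000000 cuts at peaks of the class. Cuts were found there in 48 of 789 Leydig-like nuclei and 92 of 6409 others. Endothelial-like nuclei came next with 11 cuts or 23.0 cut CPM (11.5 to 41.2).

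The second peak, at chr8:71693303-71694137 in an exon of *B3gnt3* 4506 bases downstream, was 4.37 times as open (3.17 to 5.95), on 59 of 204 cuts. The third, at chr8:71716792-71717637 in an exon of *Fcho1* 28001 bases downstream, was 3.73 times as open (2.93 to 4.72), on 96 of 372 cuts. The other 5 lay 15786 to 42584 bases downstream, with ratios of 2.16 to 3.29. Of these, the peaks at 15786 (erythroid-like), 26429 (supporting-like), 40499 and 42584 bases (both immune-like) were highest in another class, on 2 to 6 cuts. At 42584 bases immune-like nuclei held 31.1 cut CPM (11.4 to 67.7) against 11.7 in Leydig-like nuclei. Upstream of the peak at 2689 bases, all 13 peaks had ratios of 0.666 to 1.62.

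At these 3 peaks no difference was detectable between Leydig-like nuclei with an *Insl3* UMI and those without. At the upstream peak the nuclei with the RNA held 38.9 cut CPM and those without 43.4 (ratio 0.895, 0.585 to 1.38). The peaks 4506 and 28001 bases downstream gave 1.18 (0.681 to 2.09) and 0.856 (0.562 to 1.31).

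**Figure D3:**
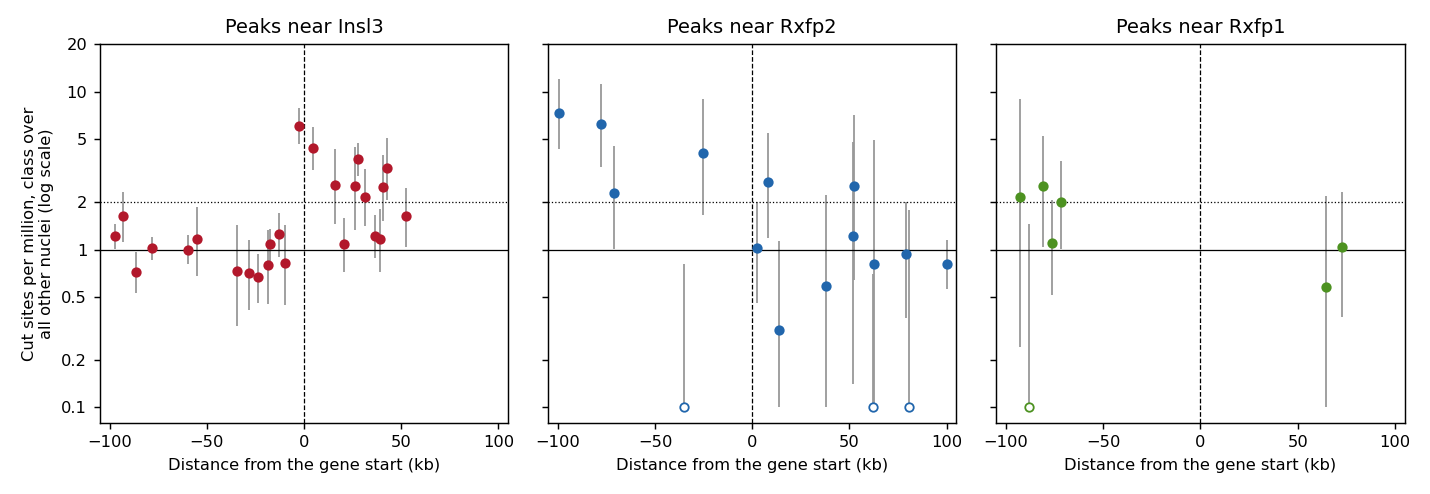
Each point is 1 peak within 100 kb of a gene start, at its distance in kb (negative is upstream) and its ratio of cut CPM on a log axis: Leydig-like over all other nuclei for Insl3, Itga8/Ntrk3-high over all others for Rxfp2 and Rxfp1. Bars are exact 95% intervals, open points at 0.1 had no cut in the class, and the dotted line is 2-fold; 8 of 25, 6 of 16 and 2 of 7 peaks lie above it.

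*Rxfp2*, the receptor of INSL3, lay mostly in the *Itga8*/*Ntrk3*-high nuclei, which held 708 of all 938 UMIs (75.5%). They stood at 231 CPM (215 to 249) and all other nuclei at 3.11 CPM, a ratio of 74.4 (64.0 to 86.7). The intervals take UMIs as independent. Counts in this class had a variance of 12.7 at a mean of 1.815 UMIs per nucleus, so intervals on *Rxfp2* RNA are too narrow. The ratio was 126.0 without nuclei over the automatic doublet threshold, and 30.3 and 9.83 for the wider *Ntrk3*-high clusters made from RNA alone and from ATAC alone. Past 2-fold in this class were 5.93% of genes. Supporting-like nuclei came next at 9.80 CPM (4.89 to 17.5), all 11 UMIs being in 2 nuclei. Erythroid-like (4.93), Leydig-like (4.46, 3.17 to 6.10), germ-like (4.10, 3.27 to 5.07), pericyte-like (2.91), progenitor-like (2.89), the unnamed cluster (2.37), Sertoli-like (2.12) and surface epithelium-like nuclei (1.82) followed, each overlapping its neighbour. Endothelial-like and immune-like nuclei held no UMI, with upper limits of 1.59 and 5.40 CPM.

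The UMIs elsewhere were gathered in few, deep nuclei. Outside the class, 24 nuclei with at least 3 *Rxfp2* UMIs held 144 of 230, with a median depth of 24769 UMIs against 8064 for all nuclei outside. Of these 24, 17 (70.8%) scored over the automatic doublet threshold of Scrublet, as did 12% of all nuclei outside. Without the nuclei over that threshold the *Itga8*/*Ntrk3*-high class stood at 257 CPM (236 to 278), Leydig-like nuclei at 0.680 CPM, germ-like at 2.80 CPM and supporting-like at 0. Progenitor-like nuclei, at 3.31 CPM (2.02 to 5.11) on 20 UMIs, were then the next highest class. When clusters were cut more finely, a contractile-like class of 1082 nuclei appeared and held 7.91 CPM (5.94 to 10.3), 54 UMIs in 14 nuclei. The *Itga8*/*Ntrk3*-high class then held 691 in place of 708 UMIs, in 386 in place of 390 nuclei.

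At least 1 *Rxfp2* UMI was found in 169 of the 390 *Itga8*/*Ntrk3*-high nuclei (43.3%, 38.4% to 48.4%; median depth 6594) and in 4.93% of germ-like nuclei (median depth 15521). Thinned to 2000 UMIs, with 1 and 2 nuclei left out, the shares were 26.2% (21.9% to 30.9%) and 0.618% (0.227% to 1.34%). Within the class *Rxfp2* counts were more uneven than *Insl3* counts in Leydig-like nuclei. The variance was 12.7 at a mean of 1.815 UMIs per nucleus, against 1.45 at 0.959 for *Insl3*. No *Rxfp2* UMI was found in 56.7% of *Itga8*/*Ntrk3*-high nuclei, where a Poisson draw at each nucleus's depth gives 22.4%. The 39 nuclei with most held 56.4% of the UMIs of the class, 23 nuclei held 8 or more, and 1 held 35.

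**Figure D4:**
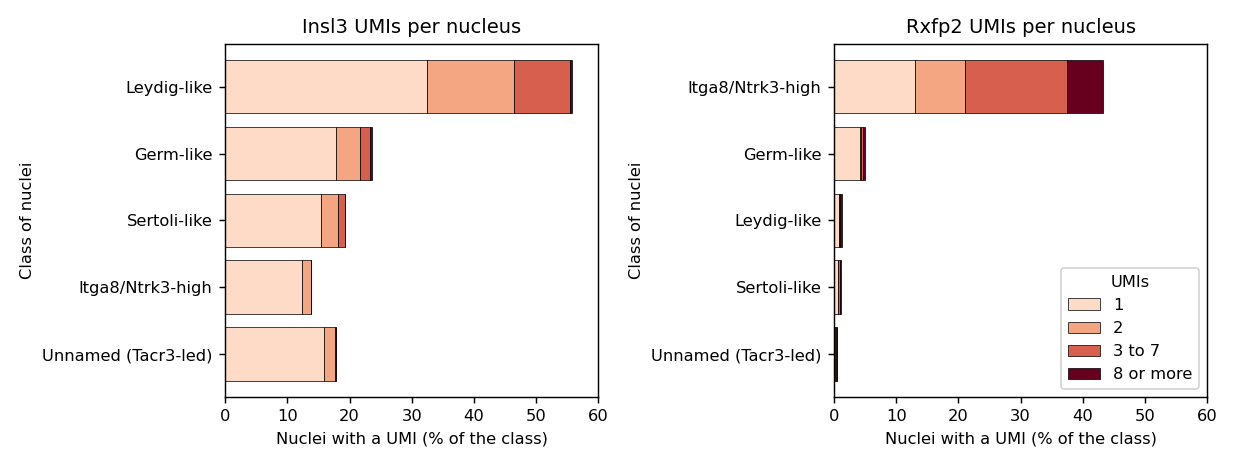
Share of nuclei with 1, 2, 3 to 7 or 8 or more UMIs of Insl3 (left) and Rxfp2 (right) in 5 classes, without thinning, so depth differs between bars. Most Leydig-like nuclei with Insl3 held 1 UMI (32.4% of the class), whereas 16.4% of Itga8/Ntrk3-high nuclei held 3 to 7 Rxfp2 UMIs and 5.90% held 8 or more.

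The unevenness went with other genes. The 169 nuclei with an *Rxfp2* UMI (median depth 7056) were compared with the 221 without (6142) over 5011 genes of at least 100 UMIs, and the extremes are given as a description, chosen after the values were seen. *Csmd1* differed most, with 84.3 CPM without and 9.60 CPM with *Rxfp2* (ratio 0.114, 0.0606 to 0.198). *Ebf2*, a transcription factor of mesenchymal precursors and 1 of the leading genes of the whole class, stood at 27.4 against 139 CPM (0.197, 0.137 to 0.277). *Adamts18* (0.185), *Lrriq1* (0.170), the guidance cue *Sema3e* (0.285) and *Eya1*, a transcriptional coactivator of kidney and ear development (0.352), were lower too.

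Higher beside *Rxfp2* were *Limch1* (260 against 73.1 CPM, ratio 3.56, 2.88 to 4.42) and *Tmem108* (3.33). *Pde10a* and *Pde7b*, which encode enzymes that break down cyclic nucleotides, were 3.15 times (2.89 to 3.42) and 2.37 times (2.08 to 2.70) as high, *Pde10a* reaching 1477 CPM. *Kif23*, *Bora* and *Kif18a*, which act in mitosis, had ratios of 2.61, 2.60 and 2.50. *Kcnip4* (3.11) is also the leading gene of the Leydig-like class, while *Star* gave 1.48 with an interval that held 1 (0.801 to 2.79). The defining markers *Itga8* (0.858, 0.792 to 0.930) and *Ntrk3* (1.11, 1.03 to 1.21) were near equal, as were *Wt1* (1.04, 0.936 to 1.15) and *Esr1* (1.15, 1.05 to 1.25), and 3 equal sets of the class by marker level held 242, 232 and 216 CPM of *Rxfp2* with overlapping intervals.

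**Figure D5:**
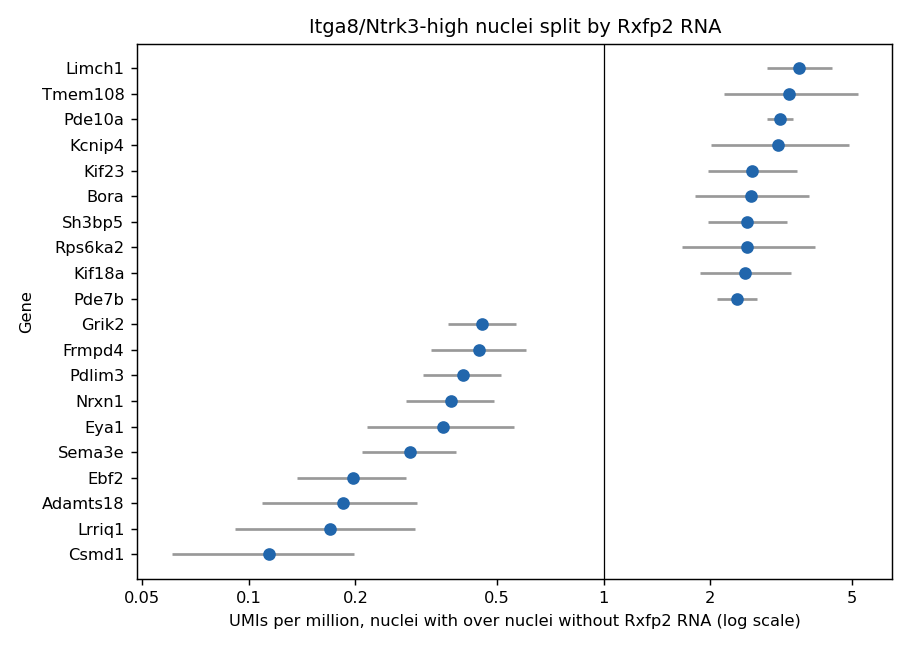
Ratio of CPM (log axis) between Itga8/Ntrk3-high nuclei with (169) and without (221) an Rxfp2 UMI, for the 10 genes of the highest and the 10 of the lowest ratio, with exact 95% intervals. Csmd1 (0.114) to Grik2 (0.455) lay below 1 and Pde7b (2.37) to Limch1 (3.56) above.

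Chromatin near *Rxfp2* was sparse. Within 1 kb of the start the *Itga8*/*Ntrk3*-high nuclei held 14 cut sites or 3.81 cut CPM (2.08 to 6.39) against 1.15 in all others (ratio 3.30, 1.73 to 5.86), and 7 against 43 fragments gave 3.23 (1.23 to 7.23). Within 500 bases the ratio was 1.75 (0.344 to 5.56) on 3 cuts, an interval that held 1. Of the 14 cuts, 11 lay 500 to 1000 bases upstream. Supporting-like nuclei, with 10 cuts or 9.11 cut CPM (4.37 to 16.8), were at or above that level. Leydig-like (0.777) and germ-like nuclei (0.903) were among the lower classes.

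Of the 16 peaks within 100 kb of *Rxfp2*, 6 (37.5%) were at least 2-fold more open in *Itga8*/*Ntrk3*-high nuclei, beside 10.6% of all peaks. The largest ratios were far upstream and intergenic. The peak at chr5:149918731-149919621, 99499 bases upstream, held 23 of 84 cuts in the class, 17.4 cut CPM against 2.38 (ratio 7.33, 4.33 to 12.02), in 11 of 390 nuclei and 32 of 6808 others. The peak at chr5:149940566-149941492, 77646 bases upstream, held 16 of 66 cuts (6.22, 3.31 to 11.1).

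The third upstream peak, at chr5:149992814-149993614 and 25461 bases from the start, gave 4.10 (1.65 to 8.91) on 8 of 46 cuts. Counted as nuclei with a cut, per fragment of the class, it gave 3.78 (0.942 to 11.2), an interval that holds 1, whereas the first peak gave 6.81 (3.10 to 13.9) and the second 5.87 (2.31 to 13.3). The remaining 3, at 70958 bases upstream and at 8367 and 52307 bases inside the gene, had ratios of 2.27 to 2.69 and also held 1 when counted by nuclei. The nearest peak to the start, 2353 bases inside the gene, was alike in both sets (1.02, 0.460 to 1.99). Other peaks went the other way. Those 34927 bases upstream and 61916 bases inside the gene had no cut in the class (upper limits 0.814 and 0.702). They were highest in Leydig-like and germ-like nuclei. Counted by nuclei with a cut, their intervals held 1 (upper limits 1.583 and 1.375).

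*Gm42557*, a noncoding gene annotated as antisense over the 3' part of *Rxfp2*, had 27 of its 45 UMIs in the class (36.2 times, 19.2 to 69.9). Counting was at the default settings of Cell Ranger ARC, which assign reads by strand. *Gm42558*, inside the first part of the gene, had no UMI.

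*Rxfp1*, the relaxin receptor (ENSMUSG00000034009, chr3:79641611-79737880, minus strand), was close to absent at this depth, with 24 UMIs in all 7198 nuclei. The *Itga8*/*Ntrk3*-high nuclei held 7 of them in 4 nuclei, 2.29 CPM (0.920 to 4.71), of which 4 were in 1 nucleus. Germ-like nuclei held 10 UMIs in 9 nuclei, 0.488 CPM (0.234 to 0.897), progenitor-like 3, Sertoli-like 2, Leydig-like 1 and the unnamed cluster 1. The ratio of the first class to all others was 9.95 (3.49 to 25.2), but 3.601 (1.26 to 9.14) for the wider *Ntrk3*-high cluster of the RNA and 1.76 (0.573 to 4.63), an interval that held 1, for that of the ATAC data. At 2000 UMIs per nucleus, 0.514% of that class and 0.103% of germ-like nuclei kept a UMI, with 1.03% and 0.925% unthinned, so shares were not distinguishable at this depth.

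No cut site lay within 1 kb of the *Rxfp1* start in *Itga8*/*Ntrk3*-high nuclei (0 cut CPM, upper limit 1.004), and 21 did in all others, 4 of them in endothelial-like nuclei (2.59 cut CPM, 0.705 to 6.62). This rests on the clustering. The wider *Ntrk3*-high cluster made from ATAC alone held 12 cuts against 9 (ratio 4.82, 1.87 to 12.96). That made from RNA alone held 2 against 19 (0.696, 0.0786 to 2.88). None of the 7 peaks within 100 kb lay closer than 64476 bases. Past 2-fold were 2 (28.6%), beside 10.6% of all peaks. These, in introns of *Tmem144* 80762 and 92945 bases upstream, had 8 and 2 cuts in the class and ratios of 2.51 (1.04 to 5.26) and 2.16 (0.243 to 9.03). Counted by nuclei with a cut, they gave 2.48 (0.637 to 6.99) and 2.20 (0.0502 to 15.9), intervals that hold 1. They were highest in endothelial-like and erythroid-like nuclei. *Gm26984*, inside the gene, had no UMI.

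The rest of the relaxin family was near 0. *Insl6*, which is known from germ cells, had 52 UMIs, 15 in Sertoli-like (1.51 CPM, 0.847 to 2.50) and 16 in germ-like nuclei (0.780 CPM, 0.446 to 1.27). *Insl5* had 8 UMIs, *Rln1* 2, and *Rln3*, *Rxfp3* and *Rxfp4* 1 each, where 3 UMIs over all nuclei are 0.0390 CPM. The *Rxfp2* ratio of Leydig-like to all other nuclei was 0.339 (0.239 to 0.467), with 708 of the 899 other UMIs in the *Itga8*/*Ntrk3*-high class, and by level the Leydig-like class was the fourth of the 12. *Rxfp1* had 1 UMI in Leydig-like nuclei, and its ratio had an interval (0.00824 to 2.09) that held 1. Nuclei with both *Insl3* and *Rxfp2* RNA numbered 23 in the *Itga8*/*Ntrk3*-high class and 6 in the Leydig-like class, where genes detected independently would give 23.4 and 5.58.

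By Pearson's r of log2(CPM + 1) over the 11 named classes, the genes most like *Insl3* among 15216 of at least 100 UMIs were *Zfp52* (0.931), *Pfkfb4*, an enzyme that controls glycolysis (0.929), *Cmbl* (0.926), *Cited2*, a transcriptional regulator (0.918), and *Scd2*, a fatty acid desaturase (0.916). For *Rxfp2* they were the alarmin *Il33* (0.868), *Lonrf1* (0.860), the homeobox gene *Alx1* (0.860), *Gbgt1* (0.859) and *Tenm2* (0.828). For *Rxfp1*, on its 24 UMIs, they were *Alx1* (0.927), *Lingo2* (0.892), *Itgbl1* (0.882), *Il33* (0.873) and *Mgam* (0.860). All classes share 1 library and differ in depth, so these values only describe likeness.

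Genes of the pathway were taken from 5 further lists and compared by ratio, where the median of all genes lay at −0.23 on the log2 scale in both classes. Beside the counts below, 8.42% of all genes passed 2-fold upward and 28.6% downward in Leydig-like nuclei, and 5.93% and 26.5% in *Itga8*/*Ntrk3*-high nuclei. Of 6 relatives of the receptors with leucine-rich repeats, 1 passed upward (16.7%) and 3 downward (50.0%) in each class. *Lhcgr*, the receptor of luteinizing hormone, stood at 1015 against 34.1 CPM in Leydig-like nuclei (29.8 times) and passed upward there, while *Lgr5* (0.0312), *Lgr6* (0.358) and the FSH receptor *Fshr* (0.0328) passed downward. In *Itga8*/*Ntrk3*-high nuclei *Lgr6* was higher (2.97, 1.61 to 5.09) and *Lgr5* (0.0482), *Lhcgr* (0.137) and *Fshr* (0.0156) were lower. *Lgr4* (0.642 and 0.524) and *Tshr* (1.06 and 1.44) stayed within 2-fold in both. The list's median log2 ratio was −1.06 and −1.90.

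Of 7 genes for cutting prohormones, 2 passed upward in Leydig-like nuclei (28.6%, background 8.42%), the convertase genes *Pcsk6* (405 against 50.8 CPM, 7.98 times) and *Pcsk5* (1478 against 700.0 CPM, 2.11 times). *Pcsk2* (0.158) and *Cpe*, a carboxypeptidase that trims prohormones (0.463), passed downward (28.6%, background 28.6%). *Furin* (1.19), *Pcsk7* (1.38) and *Pcsk1* (0.743, on 2 UMIs) did not pass. In *Itga8*/*Ntrk3*-high nuclei none passed upward and 4 of the 7 passed downward by their ratio (57.1%, background 26.5%), *Pcsk6* (0.304), *Pcsk2* (0.242), *Cpe* (0.435) and *Pcsk1*. *Pcsk1* had no UMI there and an interval (0 to 4.20) that held 1, so no lower level is shown for it. The medians were 0.26 and −1.20.

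The cyclic AMP arm held 21 genes. In Leydig-like nuclei 4 passed upward (19.0%), *Prkar2b*, a regulatory subunit of protein kinase A, with 3920 against 184 CPM (21.3 times), *Gnao1* (2.85), the cyclase *Adcy9* (2.54) and *Prkar1a* (2.46), and 7 passed downward (33.3%), among them *Adcy5* (0.220) and *Adcy7* (0.373). In *Itga8*/*Ntrk3*-high nuclei none of the 21 passed upward and 3 passed downward by their ratio (14.3%, background 26.5%), *Prkar2b* (0.101), *Adcy9* (0.498) and *Adcy8* (0.483, 0.0985 to 1.44), whose interval held 1 and for which no lower level is shown. *Gnas*, the stimulatory G protein subunit, stood at 721 against 426 CPM there (1.69, 1.62 to 1.77). The medians were −0.41 and −0.01.

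Among 6 factors reported at the *Insl3* promoter, *Nr5a1* (382 against 39.7 CPM, 9.62 times) and *Gata6* (2.88) passed upward in Leydig-like nuclei, and the nuclear receptor *Nr2f2* (0.449) downward, 33.3% and 16.7% of the list beside 8.42% and 28.6% of all genes. *Nr5a1* was also among the markers that named the Leydig-like class, so its rise there, counted in the 33.3%, is no separate result. *Gata4* (1.16), *Nr4a1* (1.11) and *Klf6* (0.547) did not pass. In *Itga8*/*Ntrk3*-high nuclei *Nr5a1* (0.205), *Gata4* (0.259) and *Nr4a1* (0.391) passed downward (50.0%, background 26.5%), and none upward. The medians were 0.18 and −0.65.

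Of 6 genes known from testis descent or the gubernaculum, 5 had enough UMIs, *Hoxa11* having 2. In *Itga8*/*Ntrk3*-high nuclei 2 of the 5 passed upward (40.0%, background 5.93%), *Hoxa10* (4.98, 2.92 to 8.12, on 20 UMIs) and the oestrogen receptor *Esr1* (652 against 304 CPM, 2.15), and none downward. *Wt1* (1.80), *Notch1* (1.37) and *Ctnnb1* (1.07) were within 2-fold. In Leydig-like nuclei *Esr1* passed upward (3.51), and *Notch1* (0.328), *Hoxa10* (0.136) and *Wt1* (0.124) downward, 1 and 3 of the 5 beside 8.42% and 28.6% of all genes. The medians were 0.84 and −1.61.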

How the data were processed

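RNA and ATAC libraries of the same E14.5 testis nuclei were analysed, 1 of each. The authors ran Cell Ranger ARC 2.0.1 on mm10 and deposited raw counts of each nucleus (UMIs of genes, cuts of peaks) and a list of fragments. Nuclei were kept at the study's thresholds, except its limit on fragments at blacklist regions, which was not applied here (under 10% mitochondrial and ribosomal and 0.5% haemoglobin UMIs, over 500 genes, over 20% of fragments and 250 to 25000 fragments at peaks), which left 7668 of 9833. Scrublet in scanpy 1.11.5 removed the 470 of highest doublet score (0.8% per 1000 nuclei), and no ambient RNA was removed. Seurat 5.3.0 in R 4.3.3 clustered both assays by weighted nearest neighbours at a resolution of 0.3. Each cluster was named by the marker list of highest mean z score, or stayed unnamed where another class led its 10 top genes.

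UMIs and cuts were summed per class over the class total. Kept nuclei held 76994664 UMIs and 38241225 fragments. Levels have exact Poisson, ratios exact conditional binomial and shares exact Clopper-Pearson 95% intervals (scipy 1.17.1). Only the RNA ratio intervals were run on simulated data. The simulated counts were independent Poisson draws, as the interval assumes, so the run cannot show how it covers counts that are not independent. No p-value was computed over nuclei, which are no replicates. Genes and peaks needed at least 20 counts over all nuclei for a 2-fold call. Named are the members, all genes of the lists, genes starting within 100 kb, the 5 genes of most similar pattern, peaks within 1 kb and the 3 peaks of largest ratio per gene. The members, markers and lists were chosen with earlier results of these data known. Some genes, of the lists and otherwise, are not reported here, and list counts and medians leave out 1 such gene from 2 of the lists. Gene positions and the exons under peaks are from GENCODE M21 on GRCm38, and the files' gene models may differ from it. RefSeq's table held promoters of 2 members, *Insl3* and *Rxfp2*.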

Additional observations from a re-analysis of the deposited data

How the results depend on the processing

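Every ratio is 1 library against itself, so no setting replaces a replicate, and leaving out a library was not possible. No paired analysis was possible because each assay has 1 library. The Leydig-like *Insl3* RNA ratio of 3.90 moved beyond its counting interval to 3.44 with clusters from ATAC alone, 3.37 under stricter minimums of 1000 genes and fragments, and 3.49 as a mean over nuclei. The *Insl3* promoter ratio of 4.49 rose to 6.15 under the automatic Scrublet threshold and 5.77 within 500 bases of the start. The *Rxfp2* RNA ratio of 74.4 moved to 53.8 without doublet removal, 126.0 under the automatic threshold and 128.3 as a mean over nuclei. No cluster took the mesonephric mesenchyme name from RNA alone or ATAC alone. The cluster of highest *Ntrk3*, a choice made after seeing the data, held 91.3% and 80.5% of the 390 nuclei among 946 and 1084, and gave *Rxfp2* ratios of 30.3 and 9.83. With ATAC alone it gave an *Rxfp1* RNA ratio of 1.76 (0.573 to 4.63) and an *Rxfp1* promoter ratio of 4.82 (1.87 to 12.96) on 12 and 9 cuts, where the main value was 0. The causes were not tested. With genes of at least 20 UMIs, 5 of the 15 most similar genes stayed, 4 for *Insl3*, 1 for *Rxfp2* and 0 for *Rxfp1*. Every peak near *Insl3* and *Rxfp2* held more than the minimum of 20 cuts, so leaving out the minimum could not change the counts of 8 and 6. No *Insl3* or *Rxfp2* ratio changed direction under any alternative run, although within 500 bases the *Rxfp2* promoter ratio of 1.75 (0.344 to 5.56) no longer excluded 1. Depth limits *Rxfp1*, with 24 UMIs in all, and the *Rxfp2* promoter ratio, with 14 cuts in the class.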
